A study of Rattus norvegicus with 20 samples.

Results

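The genes described here drive cells through DNA replication and division, and their levels were followed in globular bushy cells of the rat between postnatal days 3 and 21. The set is a list of 39 genes chosen by function: 12 of the measured genes act in S phase, 18 in G2 and mitosis, 4 are the D cyclins and Cdk4, and 4 are inhibitors of cyclin-dependent kinases (CDKs). A gene was taken as measured when the platform annotation gave a probe set that name and no other, which held for 38 of the 39 genes, with 52 probe sets, of 14218 genes on the array. Rrm2 was not matched. Globular bushy cells are neurons of the ventral cochlear nucleus whose axons cross the brainstem and end in the calyx of Held, a giant synapse in the medial nucleus of the trapezoid body. All animals were Sprague Dawley rats that had received the tracer cholera toxin B in the contralateral target nucleus and were killed 24 hours later. Labelled cells were cut from 12 µm frozen sections by laser microdissection, 200 per animal and pooled, and their RNA was amplified in 2 rounds and labelled with biotin. There were 6 animals at P3 (the synapse has just formed), 9 at P8 (juvenile synapse) and 5 at P21 (mature synapse), each on 1 array.

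Cells that divide make their cell cycle genes in waves. D cyclins with Cdk4 start the cycle by inactivating the retinoblastoma proteins, which frees E2F factors to switch on the S phase genes, and a later wave, marked in its promoters by the elements called CHR and CCAAT, supplies the cyclins, kinases and motor proteins of mitosis. CDK inhibitors of the Cip/Kip family hold the kinases back and are made strongly in many neurons as they leave the cycle. Bushy cells are born before birth and do not divide afterwards, whereas glia and the precursors of glia and of small neurons around them can still divide after birth.

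Levels are given as log2(intensity + 1), so a difference of 1 is about 2-fold for bright probe sets and understates the change of dim ones, and levels of different genes are not compared. The P8 arrays fall into separate sets. On replicates 5 to 9 the median intensity was 58.9 to 67.5, where the remaining 15 arrays of the series had 23.8 to 32.5. The share of probe sets brighter than log2 4 was 77.1 to 80.5% on the former and 59.5 to 67.6% on the latter. The tests below therefore use P3, P8 replicates 1 to 4 and P21, and the other P8 arrays are described later on their own. Until then P8 stands for replicates 1 to 4, and a statement about all arrays covers these 15. Among the cell cycle genes, 36 to 38 lay above log2 4 on a P3 array, 34 to 37 on P8 replicates 1 to 4 and 26 to 33 on a P21 array. Markers of the labelled cell type were present: 14 of 17 listed bushy cell genes, some shared with other fast auditory neurons, were measured, none was at 0 on any of the 15 arrays, and Slc17a6, the vesicular glutamate transporter of these cells in early life, averaged 11.13, 11.47 and 11.28 at the 3 ages. The list as a whole rose with age: 11 of the 14 rose from P3 to P21 in limma, and their mean level was higher by 2.58 at P21 (exact permutation test, two-sided, p = 0.00216, the smallest possible, adjusted p = 0.0190 over 44 tests). Markers of other cells were also present, as described with the results. In pooled tissue of this kind, fewer cells of a type and less RNA per cell cannot be told apart.

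Most of the cell cycle genes were lower in older animals. From P3 to P21, 26 of the 38 fell (68.4%) and 2 rose, where over all genes tested 17.1% fell and 19.0% rose by the same rule, an adjusted p under 0.05 in limma. Their median difference was -1.15, against 0.05 over all genes, and 33 of 38 differences were negative. The arrays of the ages did not overlap for 21 of the genes in the lower direction and for 2 in the higher, against 12.4% and 14.4% of all genes. From P3 to P8, 10 fell and 0 rose in limma, where 6.15% of all genes fell and 7.25% rose. At an unadjusted p under 0.05 the counts were 13 and 0, against 2010 and 2111 of all 14218 genes. From P8 to P21, 12 fell and 3 rose, where the shares of all genes were 7.89% and 7.62%. These last comparisons share the P8 arrays. The median differences of the genes were -0.59 and -0.51, and -0.11 and -0.97 with all 20 arrays, where those of all genes were 0.18 and -0.22. Arrays did not overlap for 10 genes lower and 0 higher at P8 than at P3 (5.65% and 7.24% of all genes), and for 8 lower and 3 higher at P21 than at P8 (6.58% and 7.07%).

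**Figure D1:**
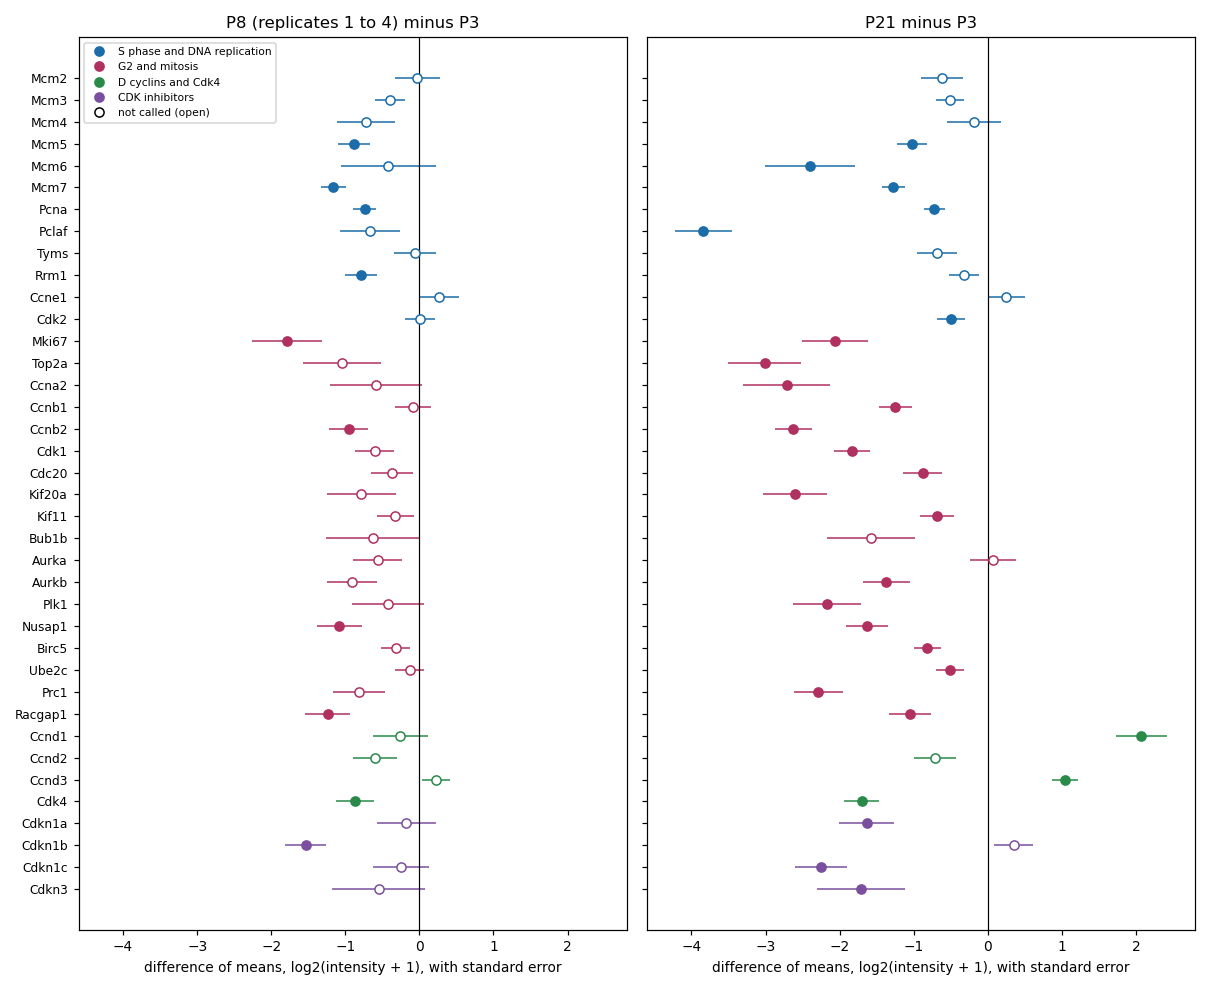
Difference of group means on the log2(intensity + 1) scale with its standard error (x axis) for each of the 38 genes (y axis), from P3 to P8 replicates 1 to 4 (left) and from P3 to P21 (right); filled points passed the test and colours give the role. On the right 26 genes fell and Ccnd1 and Ccnd3 rose, while on the left 10 fell and none rose.

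Of the S phase genes 4 of 12 fell from P3 to P8 and 1 from P8 to P21, with 6 lower at P21 than at P3. The shares of all genes that fell were 6.15%, 7.89% and 17.1%, so the 1 of 12 S phase genes (8.33%) from P8 to P21 lay near that of all genes. Of the mitotic genes 4 of 18 fell in the first interval and 8 in the second, with 16 lower at P21 than at P3. Whether the groups differ in timing was not tested. Averaged over its genes, the S phase group went from 6.47 ± 0.13 (SD, n = 6) at P3 to 6.00 ± 0.21 (n = 4) at P8 and 5.48 ± 0.23 (n = 5) at P21. The mitotic group went from 5.77 ± 0.25 to 5.07 ± 0.21 and 4.16 ± 0.22 over the same arrays. In both groups no array of an age reached into the range of another of these ages.

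**Figure D2:**
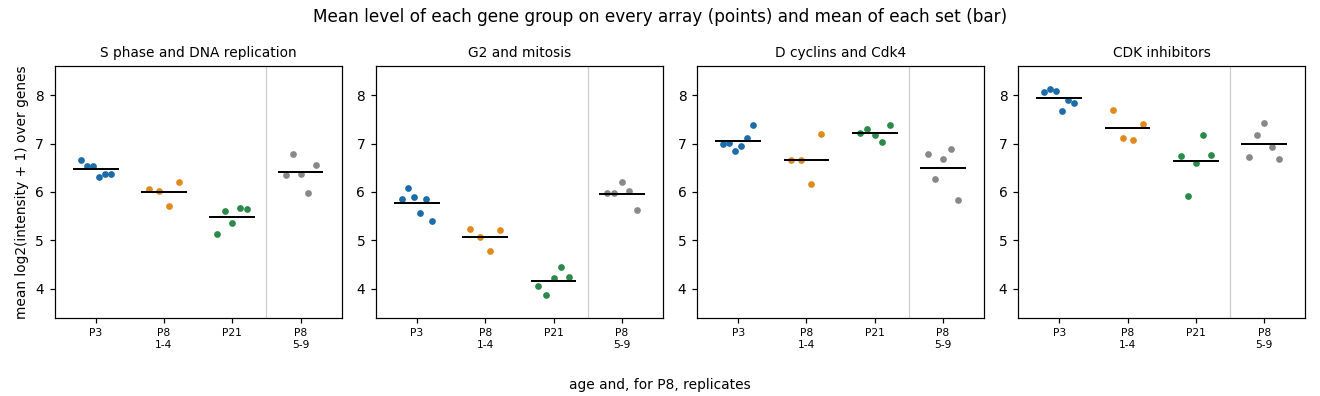
Mean log2(intensity + 1) over the genes of each role (y axis) on every array (points) by age, with the bar at the mean of each set; P8 replicates 5 to 9 stand right of the line. The mitotic genes step down from 5.77 to 5.07 and 4.16, and on P8 replicates 5 to 9 they average 5.96.

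Promoter sequences are given because many of these genes moved together. RefSeq promoters of assembly GRCr8, 300 bases from 250 before to 50 after the start, were found for 30 of the 38 genes, and Mcm4, Ccna2, Aurkb, Ube2c, Racgap1, Ccnd1, Ccnd2 and Cdkn1c had no entry. Both strands were searched for the CHR letters TTTGAA and TTCGAA, for CCAAT, and for the E2F letters TTTCCCGC, TTTGGCGC, TTTCGCGC and TTTGCCGC. Matches were counted where they overlapped, and a palindromic pair of E2F matches was counted on each strand. Of the mitotic promoters 10 of 14 held a CHR match, 12 a CCAAT match and 1 an E2F match. Of the S phase promoters 3 of 11 held a CHR match, 8 a CCAAT match and 7 an E2F match. Over all 33469 promoters of the table the shares were 19.7% for CHR, 37.5% for CCAAT and 2.14% for E2F, and over the 11735 genes of the array with a promoter they were 15%, 38.6% and 3.75%. A match is a run of letters and not a measured binding site. Shown here, 5′ to 3′ with all matches in capitals, are 2 S phase genes, 3 mitotic genes that fell (Ccnb2, Cdk1 and Top2a) and Ccnd3, which rose. The S phase genes are Mcm7, called lower from P3 to P8, and Pclaf, called lower from P8 to P21. The windows are Mcm7 at chr12:22163129-22163428 (minus strand), Pclaf at chr8:75315467-75315766 (plus strand), Ccnb2 at chr8:79981609-79981908 (minus strand), Cdk1 at chr20:19265043-19265342 (plus strand), Top2a at chr10:84473044-84473343 (minus strand) and Ccnd3 at chr9:20897826-20898125 (minus strand).
Mcm7: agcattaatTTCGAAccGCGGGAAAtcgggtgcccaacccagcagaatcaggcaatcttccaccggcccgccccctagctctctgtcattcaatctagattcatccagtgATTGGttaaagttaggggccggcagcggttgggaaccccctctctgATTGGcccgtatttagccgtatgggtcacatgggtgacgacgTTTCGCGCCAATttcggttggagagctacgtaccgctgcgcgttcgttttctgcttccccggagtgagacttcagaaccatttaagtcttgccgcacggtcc
Pclaf: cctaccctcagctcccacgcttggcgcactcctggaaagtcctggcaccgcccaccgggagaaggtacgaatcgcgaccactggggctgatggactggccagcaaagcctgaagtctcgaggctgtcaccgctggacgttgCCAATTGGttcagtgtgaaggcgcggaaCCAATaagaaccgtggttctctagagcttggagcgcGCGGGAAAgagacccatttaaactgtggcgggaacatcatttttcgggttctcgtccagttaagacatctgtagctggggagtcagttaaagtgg
Ccnb2: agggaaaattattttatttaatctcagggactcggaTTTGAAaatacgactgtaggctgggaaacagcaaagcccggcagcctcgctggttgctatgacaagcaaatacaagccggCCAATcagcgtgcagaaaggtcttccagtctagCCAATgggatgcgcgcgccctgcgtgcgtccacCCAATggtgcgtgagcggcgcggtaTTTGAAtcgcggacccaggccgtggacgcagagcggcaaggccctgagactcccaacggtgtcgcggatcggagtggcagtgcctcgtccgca
Cdk1: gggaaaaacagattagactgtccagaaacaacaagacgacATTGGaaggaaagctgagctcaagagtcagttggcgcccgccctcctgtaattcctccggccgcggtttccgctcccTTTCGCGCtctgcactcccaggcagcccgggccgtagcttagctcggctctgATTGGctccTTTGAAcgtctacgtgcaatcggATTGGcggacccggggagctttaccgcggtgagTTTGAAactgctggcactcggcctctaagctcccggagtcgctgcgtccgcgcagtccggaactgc
Top2a: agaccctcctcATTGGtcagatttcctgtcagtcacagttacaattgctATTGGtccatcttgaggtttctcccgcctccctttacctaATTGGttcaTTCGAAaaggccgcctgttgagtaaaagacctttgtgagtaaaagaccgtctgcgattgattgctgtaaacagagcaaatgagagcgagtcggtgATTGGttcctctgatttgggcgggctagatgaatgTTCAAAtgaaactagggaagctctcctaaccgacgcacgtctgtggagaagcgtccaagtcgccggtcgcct
Ccnd3: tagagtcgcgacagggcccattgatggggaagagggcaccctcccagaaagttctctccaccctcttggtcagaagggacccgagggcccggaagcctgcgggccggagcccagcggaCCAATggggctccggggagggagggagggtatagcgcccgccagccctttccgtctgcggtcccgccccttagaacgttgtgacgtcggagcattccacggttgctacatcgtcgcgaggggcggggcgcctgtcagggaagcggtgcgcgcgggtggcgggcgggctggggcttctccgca
Mcm7 holds an E2F match that overlaps a CCAAT match, with further CCAAT matches upstream at -94 and -140 from the start. It also holds an E2F match at -233 and a CHR match at -241. Pclaf holds 1 E2F match and 3 CCAAT matches, of which a pair overlap each other. Ccnb2 has 3 CCAAT matches spaced along the last stretch before a CHR match that begins 43 bases before the start. Another CHR match of Ccnb2 lies at -214. Cdk1 has an E2F match at -133, CHR matches at -72 and -16, and CCAAT matches at -210, -81 and -49. Top2a has 4 CCAAT and 2 CHR matches. Ccnd3 has a single CCAAT match in this window. Among the promoters not shown, Mcm2, Mcm3 and Bub1b hold CHR or E2F matches and passed in no comparison. Cdk4 and Cdkn1a fell from P3 to P21 and hold no match of any kind, and Ccnb1 and Kif20a fell and hold no CHR match. Whether matches go with the direction of change was not tested.

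Among the S phase genes, those for the Mcm2 to Mcm7 helicase, which unwinds DNA at the fork, did not all move. Mcm7 ranged from 7.30 to 8.04 on the P3 arrays with a median of 7.66, was 6.74, 6.28, 6.61 and 6.39 on P8 replicates 1 to 4, and 6.27, 6.22, 6.63, 6.28 and 6.54 at P21. Every later array lay below every P3 array, and P8 and P21 overlapped. It fell by 1.16 ± 0.17 (SE) from P3 to P8 (adjusted p = 6.21e-04) and by 1.27 ± 0.16 from P3 to P21 (adjusted p = 1.84e-05). Mcm5 ranged from 5.45 to 6.03 at P3 with a median of 5.92, was 5.30, 4.15, 5.08 and 5.38 on the P8 arrays and 4.69, 4.94, 4.84, 4.72 and 4.98 at P21. It too was lower on all later arrays, and fell by 0.88 ± 0.21 (adjusted p = 0.0141) to P8 and by 1.02 ± 0.20 (adjusted p = 9.47e-04) to P21. With P8 replicates 5 to 9 included, the P8 difference of Mcm5 turned to 0.079 ± 0.40 (adjusted p = 0.891).

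Mcm6 passed from P3 to P21 and not from P3 to P8. Its P3 arrays ran from 5.71 to 6.30 around 6.10, its P8 arrays read 6.14, 5.31, 5.51 and 5.50, and its P21 arrays read 3.12, 4.75, 0.58, 5.07 and 4.63. The P21 arrays were lower than those of P3 and P8 and spread widely, with replicate 3 close to 0. It fell by 2.40 ± 0.60 from P3 to P21 (adjusted p = 0.00600), while the step from P8 to P21 of -1.98 ± 0.67 did not pass (adjusted p = 0.0587). Mcm2, Mcm3 and Mcm4 passed in no comparison. Their differences from P3 to P21 were -0.62 ± 0.29, -0.51 ± 0.19 and -0.19 ± 0.37, with adjusted p of 0.106, 0.0507 and 0.736 in limma.

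Pcna, the sliding clamp of the DNA polymerases, changed early. It ranged from 9.15 to 9.87 at P3 with a median of 9.63, read 8.73, 8.76, 8.87 and 8.96 at P8, and 8.97, 8.93, 8.82, 8.97 and 8.52 at P21. The P3 arrays lay above all others, and the later ages covered the same range. The difference was -0.74 ± 0.16 to P8 (adjusted p = 0.00707) and -0.72 ± 0.15 to P21 (adjusted p = 0.00131), with 0.01 ± 0.16 between P8 and P21. Pclaf, a small protein that binds the clamp, had the largest difference of the 38 genes and took its larger step from P8 to P21. It ran from 7.48 to 8.41 at P3 with a median of 7.78, read 7.35, 6.90, 7.35 and 7.28 at P8, and 2.14, 4.78, 4.41, 4.67 and 4.25 at P21. All P8 arrays lay below all P3 arrays, a step of -0.67 ± 0.41 that did not pass (adjusted p = 0.298) except without P21 replicate 1. All P21 arrays were at least 2 units below all P8 arrays. Pclaf fell by 3.84 ± 0.38 from P3 to P21 (adjusted p = 2.51e-06) and by 3.17 ± 0.42 from P8 to P21 (adjusted p = 2.11e-04), and no alternative setting ended either call.

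Of the remaining S phase genes, Rrm1 was called from P3 to P8 and Cdk2 from P3 to P21. Rrm1, the large subunit of ribonucleotide reductase, read 6.47, 6.73, 5.95 and 6.49 at P8 against 6.79 to 7.58 at P3 around 7.21, and 7.16, 6.50, 7.13, 6.67 and 6.89 at P21. It was lower at P8 than on every P3 array, and its P21 arrays overlapped both. The P8 difference was -0.78 ± 0.22 (adjusted p = 0.0264) and reached an adjusted p of 0.0810 without P8 replicate 3. The call ended in 4 of 15 such fits. Cdk2, the partner of cyclins E and A, was lower by 0.50 ± 0.19 at P21 than at P3 with overlapping arrays (adjusted p = 0.0499). In 9 of the 15 fits without 1 array it no longer passed, with an adjusted p of up to 0.130 without P21 replicate 4. Tyms, which makes thymidylate, differed by -0.68 ± 0.26 (adjusted p = 0.0555), and Ccne1, the cyclin of the G1 to S transition, by 0.25 ± 0.25 (adjusted p = 0.475).

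**Figure D3:**
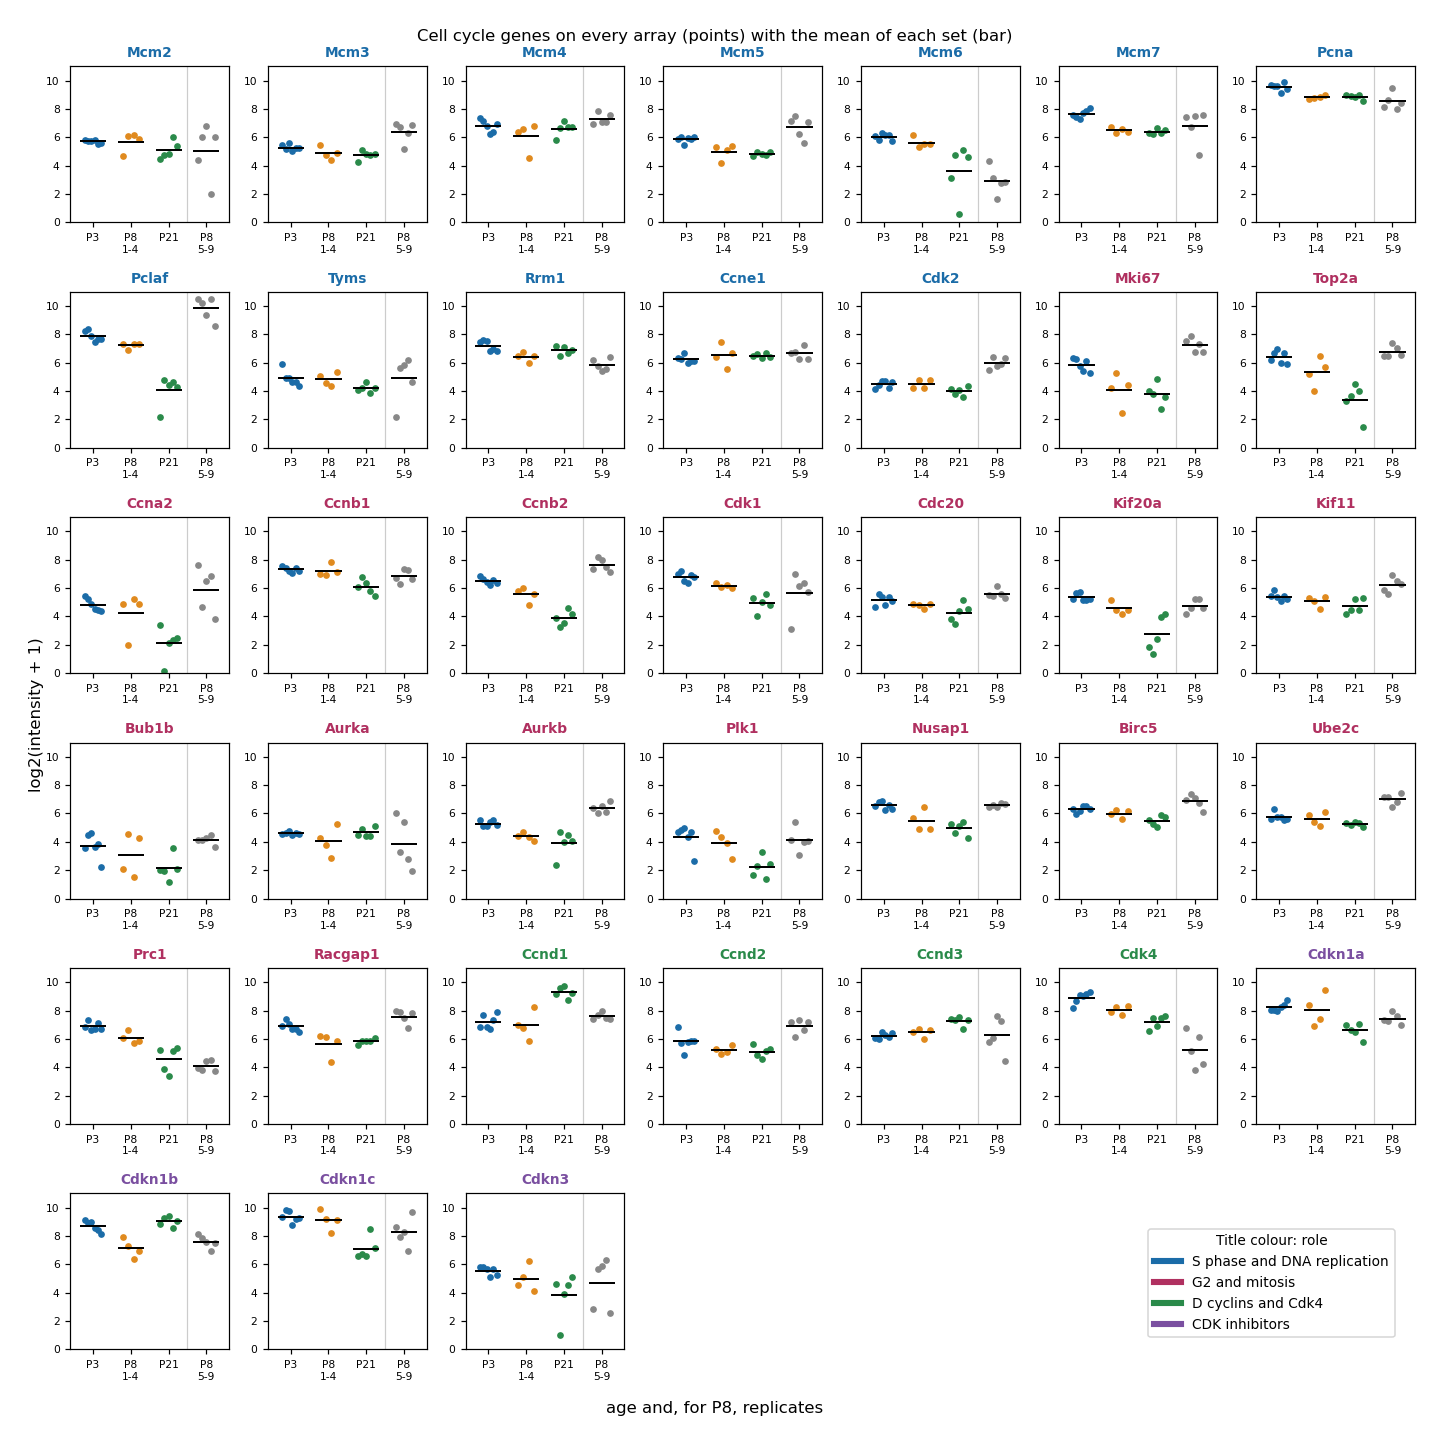
Level of each of the 38 genes as log2(intensity + 1) (y axis) on each array (points) by age, with the bar at the mean of each set; title colours give the role and P8 replicates 5 to 9 stand right of the line. At P21 Pclaf reads 2.14 to 4.78, below every other array, and Ccnd1 reads 8.77 to 9.70, above every other array.

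Of the mitotic genes 16 of 18 were lower at P21 than at P3, 13 of them with no overlap between those ages. Ccnb2, a B-type cyclin that activates Cdk1, ranged from 6.25 to 6.87 at P3 around 6.50, read 5.80, 6.03, 4.80 and 5.61 at P8 and 3.88, 3.25, 3.56, 4.62 and 4.15 at P21. The 3 ages followed each other downwards without overlap. Ccnb2 fell by 2.63 ± 0.25 from P3 to P21 (adjusted p = 1.95e-06) and by 1.67 ± 0.28 from P8 to P21 (adjusted p = 0.00110). Its first step of -0.96 ± 0.27 (adjusted p = 0.0295) was lost in 4 of 15 fits, up to 0.0909 without P8 replicate 3, and turned to 0.19 ± 0.43 (adjusted p = 0.752) with P8 replicates 5 to 9. Ccnb1, its close relative, ran from 7.09 to 7.58 at P3, read 7.00, 6.91, 7.86 and 7.15 at P8 and 6.04, 6.75, 6.33, 5.79 and 5.46 at P21. On this brighter of its probe sets it fell by 1.16 ± 0.25 in the later interval (adjusted p = 0.00615), with P21 below all P8 arrays.

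Cdk1, the kinase that starts mitosis, ranged from 6.32 to 7.19 at P3 with a median of 6.83, read 6.35, 6.09, 6.24 and 6.00 at P8 and 5.31, 4.00, 5.04, 5.60 and 4.79 at P21. P3 and P8 overlapped, and P21 lay below both. It fell by 1.83 ± 0.24 from P3 to P21 (adjusted p = 4.13e-05) and by 1.22 ± 0.27 from P8 to P21 (adjusted p = 0.00687). Ccna2, the cyclin of S and G2, read 4.88, 1.96, 5.21 and 4.87 at P8 against 4.39 to 5.41 at P3, and 3.39, 0.14, 2.10, 2.35 and 2.51 at P21. The P21 arrays were below all P3 arrays, but P8 replicate 2 reached into their range. The fall of 2.71 ± 0.59 from P3 to P21 had an adjusted p of 0.00210, and that of 2.13 ± 0.65 from P8 to P21 (adjusted p = 0.0378) ended in 7 of 15 fits, with up to 0.111 without P8 replicate 3.

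Mki67 and Top2a are the usual markers of cycling cells, and both were lower at P21 than at P3. Mki67, a protein of the mitotic chromosome surface, ranged from 5.26 to 6.36 at P3 with a median of 5.96, read 4.18, 5.26, 2.43 and 4.45 at P8 and 4.04, 3.80, 4.85, 2.72 and 3.58 at P21. P8 and P21 shared a range, with P8 replicate 2 level with the lowest P3 array. It fell by 1.79 ± 0.48 to P8 (adjusted p = 0.0228) and by 2.07 ± 0.45 to P21 (adjusted p = 0.00209). The P8 call was lost without P8 replicate 3 (adjusted p = 0.0631), and with P8 replicates 5 to 9 the difference was -0.033 (adjusted p = 0.974). Top2a, the topoisomerase that untangles replicated DNA, ran from 5.91 to 6.97 at P3 around 6.43, read 5.22, 4.02, 6.45 and 5.70 at P8 and 3.26, 3.67, 4.50, 4.01 and 1.49 at P21. Its P8 arrays spanned the gap between the other ages. It fell by 3.01 ± 0.49 from P3 to P21 (adjusted p = 2.35e-04) and by 1.96 ± 0.54 from P8 to P21 (adjusted p = 0.0234), the latter with an adjusted p of 0.0781 without P8 replicate 3.

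Genes of the spindle and of cytokinesis fell too. Prc1, which bundles the microtubules of the central spindle, ran from 6.64 to 7.33 at P3, read 6.06, 6.60, 5.74 and 5.84 at P8 and 5.22, 3.86, 3.39, 5.13 and 5.36 at P21. The ages did not overlap, and it fell by 2.29 ± 0.33 from P3 to P21 (adjusted p = 8.27e-05). Kif20a, a kinesin of the same structure, read 1.81, 1.38, 2.38, 3.99 and 4.15 at P21 against 5.15 to 5.72 at P3, a fall of 2.61 ± 0.43 (adjusted p = 2.81e-04). Racgap1, a cytokinesis regulator, was lower at P8 by 1.24 ± 0.30 (adjusted p = 0.0155), with 5.65 ± 0.87 (SD, n = 4) there and 5.84 ± 0.17 (n = 5) at P21. Nusap1, a spindle protein, fell by 1.62 ± 0.28 from P3 to P21 (adjusted p = 4.08e-04). Its step to P8 of -1.08 ± 0.30 (adjusted p = 0.0284) ended in 5 of 15 fits, with up to 0.0888 without P8 replicate 2.

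The mitotic kinases and the machinery of mitotic exit were mixed in size. Plk1, a kinase with several roles in mitosis, fell by 2.17 ± 0.46 from P3 to P21 (adjusted p = 0.00175), with 2.66 to 4.96 at P3 and 1.63, 2.29, 3.28, 1.38 and 2.41 at P21, so that 1 low P3 array overlapped. Its step from P8 to P21 of -1.75 ± 0.51 (adjusted p = 0.0293) ended in 5 of 15 fits, with up to 0.0816 without P8 replicate 1. Aurkb, the kinase of the chromosomal passenger complex, fell by 1.37 ± 0.32 from P3 to P21 (adjusted p = 0.00349) and Birc5, its partner survivin, by 0.81 ± 0.18 (adjusted p = 0.00271). Cdc20, an activator of the anaphase-promoting complex, fell by 0.88 ± 0.27 (adjusted p = 0.0176), with an adjusted p of 0.0508 without P21 replicate 2. Smaller falls of 0.51 ± 0.19 for Ube2c, the ubiquitin enzyme of that complex (adjusted p = 0.0431), and of 0.68 ± 0.23 for Kif11, the spindle motor Eg5 (adjusted p = 0.0331), ended in 9 and 6 of the 15 fits. Their highest adjusted p were 0.0955 without P3 replicate 2 and 0.0897 without P21 replicate 1. Aurka, the centrosomal kinase, and Bub1b, a checkpoint protein, did not pass: Aurka differed by 0.07 ± 0.31 (adjusted p = 0.879) and Bub1b by -1.57 ± 0.60 (adjusted p = 0.0518). Bub1b is the 1 gene of the 38 that was not above log2 4 in at least 5 arrays.

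Of the D cyclins, which act before S phase, 2 rose. Ccnd1 ranged from 6.71 to 7.90 at P3 with a median of 7.09, read 6.98, 6.75, 5.88 and 8.26 at P8 and 9.19, 9.58, 9.70, 8.77 and 9.25 at P21. All P21 arrays lay above all younger ones, P8 replicate 4 being the nearest. Ccnd1 rose by 2.33 ± 0.39 from P8 to P21 (adjusted p = 0.00102) and by 2.08 ± 0.35 from P3 to P21 (adjusted p = 3.07e-04). Ccnd3 ran from 6.02 to 6.52 at P3 around 6.21, read 6.48, 6.68, 6.01 and 6.65 at P8 and 7.44, 7.36, 7.53, 6.71 and 7.36 at P21. Its P21 arrays were again the highest, with replicate 4 just above the top P8 array. It rose by 1.04 ± 0.18 from P3 to P21 (adjusted p = 3.37e-04) and by 0.83 ± 0.20 from P8 to P21 (adjusted p = 0.0107). Ccnd2, the remaining D cyclin, differed by -0.71 ± 0.28 from P3 to P21 (adjusted p = 0.0579) and did not pass.

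Cdk4, the kinase that D cyclins activate, went down while 2 of its cyclins went up. It ranged from 8.19 to 9.32 at P3 with a median of 9.05, read 7.91, 8.24, 7.68 and 8.33 at P8 and 6.57, 7.45, 6.91, 7.50 and 7.61 at P21. P3 and P8 met at their edges, and all P21 arrays were lower. It fell by 1.70 ± 0.24 from P3 to P21 (adjusted p = 6.11e-05). The separate steps of -0.87 ± 0.25 (adjusted p = 0.0346) and -0.83 ± 0.26 (adjusted p = 0.0449) were less firm. They ended in 6 and 10 of the 15 fits without 1 array, with up to 0.0952 without P8 replicate 3 and 0.108 without P8 replicate 2, and the later step turned to 0.73 ± 0.64 (adjusted p = 0.383) with P8 replicates 5 to 9.

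Of the CDK inhibitors, Cdkn1a and Cdkn1c were lower at P21 than at both younger ages, and Cdkn1b was lower at P8. Cdkn1c (p57) ranged from 8.79 to 9.81 at P3 around 9.31, read 9.91, 9.19, 8.24 and 9.13 at P8 and 6.60, 6.75, 6.58, 8.50 and 7.13 at P21. P3 and P8 overlapped, and at P21 4 arrays lay far below while replicate 4 reached the lowest P8 value. It fell by 2.25 ± 0.35 from P3 to P21 (adjusted p = 1.75e-04) and by 2.00 ± 0.39 from P8 to P21 (adjusted p = 0.00309). Cdkn1a (p21), which is induced by p53, ran from 7.96 to 8.74 at P3, read 8.41, 6.91, 7.42 and 9.48 at P8 and 6.98, 6.66, 6.52, 7.06 and 5.76 at P21. Its P8 arrays spread over both other ages. It fell by 1.63 ± 0.38 from P3 to P21 (adjusted p = 0.00326) and by 1.46 ± 0.42 from P8 to P21 (adjusted p = 0.0271), the latter ending in 4 of 15 fits with up to 0.0667 without P8 replicate 1.

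Cdkn1b (p27), the Cip/Kip inhibitor best known for keeping neurons and glia out of the cycle, was lowest at P8. It ranged from 8.12 to 9.11 at P3 with a median of 8.72, read 7.93, 7.30, 6.37 and 6.94 at P8 and 8.81, 9.27, 9.41, 8.58 and 9.03 at P21. The P8 arrays lay below all others, while P3 and P21 overlapped. It fell by 1.54 ± 0.28 from P3 to P8 (adjusted p = 0.00302) and rose by 1.89 ± 0.29 from P8 to P21 (adjusted p = 6.06e-04), and no alternative setting ended these calls. P21 and P3 differed by 0.35 ± 0.26 (adjusted p = 0.328). Cdkn3, a phosphatase that acts on CDKs, was lower by 1.71 ± 0.59 at P21 than at P3 (adjusted p = 0.0346), with 1.00 on P21 replicate 2 against 3.92 to 5.13 on the other P21 arrays. That call ended in 5 of 15 fits, with up to 0.0612 without P3 replicate 1.

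Second probe sets were available for 10 of the 38 genes, and the 14 that did not represent their gene had the same sign as the one that did in 13 cases from P3 to P21. The exception was a Cdc20 probe set at 0.33 ± 0.28 (adjusted p = 0.415). The remaining further Cdc20 probe sets differed by -0.52, -0.53 and -0.32 and did not pass either (adjusted p = 0.385, 0.432 and 0.665). Tested on their own over all single-gene probe sets, 4 of the 14 passed. Both further Ccnd1 probe sets rose, by 2.35 ± 0.73 (adjusted p = 0.0244) and 2.76 ± 0.80 (adjusted p = 0.0172). A dimmer Kif11 probe set fell by 1.99 ± 0.32 (adjusted p = 2.44e-04) and a dimmer Cdk2 probe set by 1.06 ± 0.34 (adjusted p = 0.0289). The dim probe set of Cdkn1b had the same shape, at 3.77, 2.61 and 3.77 for P3, P8 and P21, with steps of -1.16 ± 0.59 and 1.17 ± 0.62 that did not pass (adjusted p = 0.233 and 0.259). The second probe set of Top2a differed by -0.82 ± 0.48 (adjusted p = 0.224) and that of Racgap1 by -0.19 ± 0.15 (adjusted p = 0.376). From P8 to P21 the second probe set of Ccnb1 differed by -0.05 ± 0.51 (adjusted p = 0.967) and that of Top2a by 0.12 ± 0.53 (adjusted p = 0.922). With the mean of the probe sets of a gene, the calls of Ccnb1, Top2a, Cdkn1a and Cdk4 from P8 to P21 ended. So did that of Cdc20 from P3 to P21.

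**Figure D4:**
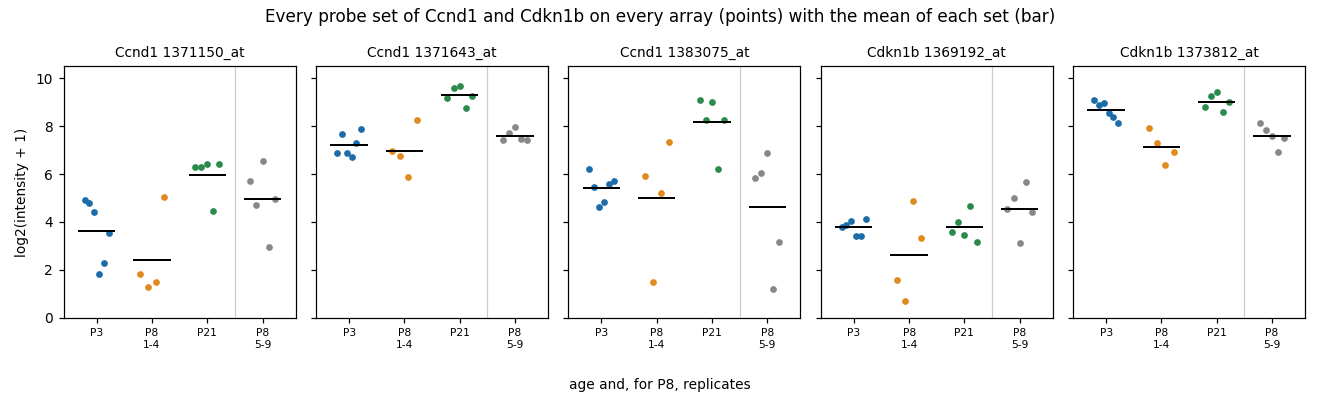
Level as log2(intensity + 1) (y axis) of the 3 probe sets of Ccnd1 and the 2 of Cdkn1b on every array (points) by age, with the bar at the mean of each set and P8 replicates 5 to 9 right of the line. Each Ccnd1 probe set is highest on average at P21, and each Cdkn1b probe set is lowest on average on P8 replicates 1 to 4.

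P8 replicates 5 to 9 were set against P8 replicates 1 to 4 as a description. Without overlap, 13 of the 38 genes lay above and 3 below, where 24.1% of all genes lay above and 16.1% below. The median difference of the 38 genes was 0.55 and that of all genes 0.35. The mitotic group gave 8 of the 13, with a median of 1.06. Mki67 read 7.52, 7.86, 6.76, 7.30 and 6.74 on these arrays, above every other array of the series. Pclaf read 10.47, 10.23, 9.36, 10.49 and 8.57, also above every other array, and Ccnb2 read 7.35, 8.17, 7.96, 7.49 and 7.13. The 3 genes below were Mcm6 at 4.34, 3.12, 1.68, 2.77 and 2.83, Prc1 at 3.94, 3.82, 4.43, 4.51 and 3.74, and Cdk4 at 6.75, 5.14, 3.84, 6.15 and 4.26. Marker means differed between these sets as well: granule neuron progenitors by 1.72 and microglia by 1.49 upwards, neurons by -1.35 and bushy cell genes by -1.17 (exact permutation test, two-sided, p = 0.00794, the smallest possible, and adjusted p = 0.0194 over 44 tests for each). The mean levels of oligodendrocyte precursor genes (0.38, adjusted p = 0.164) and of radial glia genes (0.20, adjusted p = 0.466) did not pass in the same exact permutation tests. The difference between 3' and 5' probe sets was lower by 2.39 for beta-actin and by 1.08 for Gapdh (adjusted p = 0.0194 for each, exact permutation test). The summed intensity of the 12 microglial genes was 1165 to 1474 against 262 to 563, and that of the 9 granule neuron progenitor genes 1618 to 2118 against 417 to 722. The part of these markers and of RNA quality in the levels of the cell cycle genes was not tested.

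With all 20 arrays in the fit, 14 genes were lower and 1 higher at P21 than at P3, where 6.70% and 6.18% of all genes were. The differences from P3 to P21 of the 38 genes were the same in both fits. The calls of Mcm5, Pcna, Cdk2, Mki67, Cdc20, Kif11, Aurkb, Birc5, Ube2c, Racgap1, Cdk4, Cdkn3 and Ccnd3 ended. Each of these genes had a larger standard error in the fit of 20 arrays, such as 0.46 against 0.20 for Mcm5 and 0.40 against 0.18 for Ccnd3. From P3 to P8, that fit gave 7 genes lower and 0 higher, where 10.0% and 15.9% of all genes were. The calls of Mcm5, Mki67, Ccnb2, Nusap1 and Racgap1 ended, and Mcm6 and Prc1 were called in addition. From P8 to P21 it gave 18 lower and 3 higher, where 9.93% and 8.87% of all genes were. The calls of Cdk1, Prc1, Ccnd3 and Cdk4 ended, and 9 further genes fell and Rrm1 rose.

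Markers of cells that can divide were measured in the same samples. From P3 to P21, where 17.1% of all genes fell and 19.0% rose, 8 of the 11 measured oligodendrocyte precursor genes fell and 2 rose (18.2%). Their summed intensity was 3478 to 3920 on P3 arrays, 2172 to 2733 on P8 replicates 1 to 4 and 1169 to 1791 at P21, with Olig1, Ptprz1 and Lhfpl3 the brightest and none at 0. Their mean level differed by -1.26 from P3 to P21 (exact permutation test, two-sided, p = 0.00216, the smallest possible, adjusted p = 0.0190 over 44 tests). Of the 8 measured genes of radial glia and neural progenitors 5 fell and 1 rose, with summed intensities of 3389.9 to 4007, 2052 to 3428.0 and 389.5 to 601 and none at 0. Fabp7 led that list with means of 11.44, 11.04 and 7.45. Granule neuron progenitor genes summed to 935 to 1254 at P3, 417 to 722 at P8 and 412 to 1270 at P21. From P3 to P21 1 of these 9 genes fell (11.1%), and their mean level differed by -0.36 without passing (exact permutation test, adjusted p = 0.0606). Between the same ages the mean levels of astrocyte (0.16), microglia (-0.06) and endothelial cell and pericyte genes (0.10) did not pass either. Their adjusted p in the exact permutation tests were 0.397, 0.653 and 0.564. Beside the rise of Ccnd1, 12 of 13 oligodendrocyte and myelin genes rose from P3 to P21, with summed intensities of 1091 to 2553 and 7798 to 11564, and 11 of the 13 had risen by P8. The difference between 3' and 5' probe sets of the control gene Gapdh, a sign of RNA length, was 2.91 ± 0.27 (SD, n = 6) at P3 and 3.99 ± 0.66 (n = 5) at P21 (exact permutation test, adjusted p = 0.0190). The same measure of beta-actin went the other way, at 4.70 ± 0.30 and 4.32 ± 0.69, and did not pass (exact permutation test, adjusted p = 0.299). The part of these markers and of RNA quality in the cell cycle results was not tested.

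Further genes of the same pathways were followed from lists of the cell cycle. Of 38 further replication genes measured, 12 fell (31.6%, against 17.1% of all genes) and 3 rose (7.89%, against 19.0%) from P3 to P21, with a median of -0.54. Those with the smallest p were Pold2 (-1.10 ± 0.11), a polymerase delta subunit, Tk1 (-1.46 ± 0.22), thymidine kinase, and Gmnn (-1.98 ± 0.33), the licensing inhibitor geminin. With all 20 arrays another probe set of Gmnn was the brightest, and its difference was 0.18 ± 0.53 (adjusted p = 0.910). The 3 that rose were Orc5 (1.32 ± 0.19) of the origin recognition complex, Rpa1 (0.67 ± 0.13), which coats single-stranded DNA, and the flap nuclease Fen1 (0.69 ± 0.17), and the last 2 also act in DNA repair. The call of Fen1 ended with all 20 arrays (adjusted p = 0.365). Of 47 further mitotic genes 21 fell (44.7%) and 1 rose (2.13%), with a median of -0.82. Those with the smallest p were the mitotic kinase Pbk (-2.71 ± 0.27), Cdca3 (-1.40 ± 0.18) and the kinetochore gene Nuf2 (-2.15 ± 0.29), which were not those with the largest differences. The gene that rose was Cit, citron kinase, by 1.23 ± 0.24.

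Of 28 further genes of G1 cyclins, CDKs, retinoblastoma and E2F proteins 13 fell (46.4%, against 17.1% of all genes) and 4 rose (14.3%, against 19.0%) from P3 to P21. Mycn, a transcription factor of growing progenitors, fell by 3.72 ± 0.34 (adjusted p = 1.40e-06), E2f5, a repressor E2F, by 2.71 ± 0.25 (adjusted p = 1.45e-06) and Ccng1, a p53 target, by 1.76 ± 0.17 (adjusted p = 2.11e-06). E2f6 and Rbl2, which repress cell cycle genes in resting cells, rose by 0.98 ± 0.20 and 0.99 ± 0.24, and Mnat1 of the CDK-activating kinase by 0.75 ± 0.18. The call of Rbl2 ended with all 20 arrays (adjusted p = 0.148). Of 9 further inhibitors, the INK4 genes among them, 0 fell in limma in any comparison. Of all genes 6.15% (P3 to P8), 7.89% (P8 to P21) and 17.1% (P3 to P21) fell. From P3 to P21 1 of the 9 rose (11.1%, against 19.0% of all genes), the antiproliferative gene Tob1. It rose by 0.67 ± 0.21 (adjusted p = 0.0208, and 0.430 with all 20 arrays). At an unadjusted p under 0.05, 1 of the 9 was lower from P3 to P8, against 2010 of all 14218 genes. From P8 to P21 2 were higher, against 2140 of all genes. In the other comparisons 0 were lower, against 1978 (P8 to P21) and 3017 (P3 to P21) of all genes.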

How the data were processed

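Per the labels' protocols, 20 arrays held amplified RNA of laser-dissected cells, 1 animal each and called biological replicates, with no litters or dates named. The table the authors deposited gives 1 linear intensity per probe set and array. GCRMA, which gives log2 values, is named without a role in the submitters' processing notes. What made the linear values is not given in these sources. The mean without the lowest and highest 2% was 100.0 on every array, so no normalization was added.

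Probe sets with 1 annotated gene were used (20832 of 31099, with 436 of several genes, 9831 unnamed and 57 controls). Symbols were updated through RefSeq of assembly GRCr8 (20764 by Entrez identifier, 2 by accession, 66 kept), and among several probe sets of a gene the brightest on average stood for it. Values were log2(intensity + 1), tested in R 4.3.3 with limma's lmFit and eBayes (version 3.58.1), 3 ages in 1 fit and no filter. Adjustment was by Benjamini-Hochberg over 14218 genes, and calls needed an adjusted p under 0.05. Gene p-values come from limma throughout. Second probe sets were adjusted over all 1-gene probe sets. Array measures had exact permutation tests over all regroupings, 44 in the family.

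The 38 genes, the lists and the separation of P8 replicates 5 to 9 were chosen with earlier results of these data known. All 38 could be named, and of each further list up to 3 genes with the smallest p in each direction from P3 to P21. Alternatives were all 20 arrays, 2 filters, a pseudocount of 16, 2 normalizations, other variance models, array weights, other uses of probe sets, 2 ages alone, the replicate number as a block, a 2-fold threshold and each of the 15 arrays left out. The test was tried on simulated data, 50 changed genes per fold. From P3 to P21 limma recovered 25 at 2-fold, 43 at 4-fold and 48 at 8-fold. It also called 8 unchanged genes, in a simulation of 14218 genes that includes the changed ones. From P3 to P8 it recovered 24, 43 and 49, and from P8 to P21 18, 40 and 45. The number of arrays limits the precision. No 2 arrays held identical values.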

Additional observations from a re-analysis of the deposited data

Results flagged for a closer look

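Single arrays stood away from the rest of their group in 10 of the 152 gene and group combinations checked with Dixon's test, where chance alone gives about 1 in 20. Among the genes that fell, Pclaf read 2.14 on P21 replicate 1 against 4.25 to 4.78 on the other P21 arrays, and 6.90 on P8 replicate 2 against 7.28 to 7.35 on replicates 1, 3 and 4. Ccna2 read 1.96 on P8 replicate 2 against 4.87 to 5.21. Mcm5 read 5.45 on P3 replicate 3 against 5.86 to 6.03, and Plk1 read 2.66 on P3 replicate 6 against 4.34 to 4.96. On single P3 arrays Tyms and Ube2c were high: Tyms read 5.91 on replicate 1 against 4.36 to 4.90, and Ube2c read 6.29 on replicate 2 against 5.56 to 5.73. At P21, replicate 4 differed in 2 genes, with Ccnd3 at 6.71 against 7.36 to 7.53 and Cdkn1c at 8.50 against 6.58 to 7.13. On P8 replicate 8, Mcm7 read 4.73 against 6.74 to 7.55 on replicates 5, 6, 7 and 9.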

How the results depend on the processing

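The count of genes that fell from P3 to P21, 26 of 38, became 14 with all 20 arrays and 9 among genes with a mean above log2 6, and 22 to 29 with 1 array left out; that of genes that rose, 2, became 1 with all 20 arrays and stayed at 2 with any 1 left out. From P3 to P8 the count of 10 lower became 6 with a mean above log2 6, 5 with a 2-fold threshold and 6 to 12 with 1 array left out, with 6 without P8 replicate 3, and 0 rose in each of these fits without 1 array. From P8 to P21 the 12 lower became 6 with a mean above log2 6, 6 with only the 2 ages compared and 8 to 12 with 1 array left out, and the 3 higher became 3 to 4. The replicate numbers did not pair the arrays: same-numbered arrays correlated between -0.044 and 0.040 in their deviations, and the replicate block gave 5 lower from P3 to P8 in place of 10. Other counts of calls stayed within 1.5 times. Among the called differences of the 38 genes, signs turned with all 20 arrays for Mcm5 (0.079) and Ccnb2 (0.19) from P3 to P8 and for Cdk4 (0.73) from P8 to P21, and beyond the 38 for Gmnn (0.18) from P3 to P21, through another probe set. Of the 53 calls, 37 held with every single array left out. Under every alternative that tested the gene 22 held, including Pclaf, Mcm7, Cdk1, Ccnb2 and Ccnd1 from P3 to P21. Some of the 22, Ccnb2 among them, were not tested in the fit of genes with a mean above log2 6. The cause of these shifts was not tested, except that the log2 6 mean drops genes from the test. From P3 to P21 the differences of the 38 genes were the same with all 20 arrays, and only their standard errors and adjusted p changed.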
